A study of Mus musculus with 2 samples.

Results

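The miR-200 family and the miR-183 cluster are 8 microRNA genes at 3 loci that are best known from epithelia and sensory cells: Mir200b, Mir200a and Mir429 on chromosome 4, Mir200c and Mir141 on chromosome 6, and Mir183, Mir96 and Mir182 at a separate place on chromosome 6. They were taken by name (GENCODE M21 symbols), and all 8 of 8 were found among the 2202 microRNA genes in the count tables. In the cerebral cortex examined here their levels were middling to low among detected microRNA genes. The locus on chromosome 4 was the most abundant at 211 ± 56.0 CPM (counts per 1000000 reads on microRNA genes; SD, n = 2), ahead of the miR-183 cluster at 138.7 ± 40.8 CPM and of the Mir200c locus at 62.9 ± 14.1 CPM. Within a locus the levels were uneven. Mir429 had the highest mean of the 8 genes, though Mir200b lay above it in replicate 1. Mir96 was the lowest in both libraries, with 3 and 15 reads in replicates 1 and 2. Its neighbour Mir183 had 454 and 345 reads, and Mir182 had 369 and 128.

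MicroRNAs are short RNAs cut from hairpin precursors. They guide Argonaute proteins to messenger RNAs that pair with the seed, bases 2 to 8 of the mature microRNA, and so lower the output of those messengers. The miR-200 family is known for repressing the transcription factors Zeb1 and Zeb2, which in turn repress the miR-200 genes. This mutual repression holds epithelial cells in the epithelial state, and the family also acts in the formation of olfactory neurons. The miR-183 cluster is known from sensory cells such as hair cells of the inner ear and photoreceptors, and seed mutations of miR-96 cause hearing loss in mice and in humans.

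The data are microRNA-seq libraries, made from RNA shorter than 30 bases out of total RNA of the left cerebral cortex, for 2 samples of a single group, numbered in the labels as biological replicates. The tissue is from adult males between 8 and 10 months of age, of the strain labelled 5xFAD/CAST. In 5xFAD animals transgenes driven by the neuronal Thy1 promoter cause amyloid to build up in the brain; CAST is a wild-derived inbred strain. Whether the sampled animals carried the transgenes is not in the labels, and no other group was analysed here. Both tissue samples carry one donor identifier, and the labels do not give the number of animals, so the SD of the 2 libraries may be technical. Replicate 1 had 4929428 reads on the sense strand of microRNA genes and replicate 2 had 4441328, so that a single read stood for 0.203 and 0.225 CPM. Of 18 listed neuronal microRNA genes 16 reached 10 reads in both libraries, beside 417 of all 2202 genes. The list was chosen with earlier results of these data known, so it is a description rather than a check of the tissue. It summed to 59179 CPM in replicate 1 and to 68149 in replicate 2. Without Mir132 it summed to 39498 and 23452 CPM, so that the direction of the sum turned with this gene. Mir124a-2 and Mir124a-3, copies of the best known neuronal microRNA, stayed under that minimum, and reads that match several places are kept out of the gene counts. In a whole tissue, fewer cells of a type and less RNA per cell cannot be told apart.

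The mature sequences show how the 8 genes relate to each other, since the seed decides which messengers a microRNA can pair with. They are given here 5′ to 3′ from RefSeq (GRCm38.p6, the same assembly as mm10), with the seed in capitals. Members of the miR-200 family are shown by their 3p arm, which is the arm usually loaded.
miR-200b-3p: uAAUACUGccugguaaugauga
miR-429-3p: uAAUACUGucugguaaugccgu
miR-200c-3p: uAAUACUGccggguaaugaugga
miR-200a-3p: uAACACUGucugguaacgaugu
miR-141-3p: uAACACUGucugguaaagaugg
Members of the miR-183 cluster are shown by their 5p arm, for the same reason.
miR-183-5p: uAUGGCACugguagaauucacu
miR-96-5p: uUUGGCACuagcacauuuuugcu
miR-182-5p: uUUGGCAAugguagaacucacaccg

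The miR-200 family splits into 2 seed groups that cut across its 2 loci. AAUACUG is shared by Mir200b, Mir429 and Mir200c, and AACACUG by Mir200a and Mir141. Counted from 1 at the 5′ end, miR-200b and miR-200c differed within their first 22 bases by U11G and A22G, and miR-200a and miR-141 differed by C17A and U22G. By contrast miR-200b differed from miR-200a, its neighbour on chromosome 4, at 4 of 22 bases (U4C, C9U, U17C and A22U), of which U4C lies in the seed. In the miR-183 cluster each gene has a seed of its own. miR-183 and miR-182 were identical at 18 of 22 bases, with A2U and C8A in the seed. miR-183 and miR-96 were identical at 13 of 22, but in the seed they differed by A2U only. miR-96 and miR-182 differed in the seed by C8A only. Among the mature mouse sequences of RefSeq, one other had a seed of this set: miR-1271-5p, annotated as Gm24195 on chromosome 13, has the miR-96 seed UUGGCAC, and its gene had 0 reads in both libraries, which allows a level of up to 3 reads, 0.609 and 0.675 CPM.

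Every precursor of the 8 lies on the minus strand (mm10, GENCODE M21, counted from 1). On chromosome 4, Mir200b (ENSMUSG00000065549.3, chr4:156055681-156055750), Mir200a (ENSMUSG00000065400.1, chr4:156054896-156054985) and Mir429 (ENSMUSG00000065427.1, chr4:156053905-156053987) follow each other in the direction of transcription within 1846 bases. They lie inside an intron of Ttll10, a gene of the tubulin tyrosine ligase-like family, and inside the non-coding gene Gm13648, all on the same strand. Mir429 falls wholly in an exon of Gm13648, and the other 2 in its intron. On chromosome 6, Mir200c (ENSMUSG00000065462.3, chr6:124718322-124718390) and Mir141 (ENSMUSG00000065474.1, chr6:124717914-124717985) are 336 bases apart in an intron of the non-coding gene Gm15884, and part of Mir141 overlaps the single-exon annotation Gm29008. Mir183 (ENSMUSG00000065619.2, chr6:30169668-30169737), Mir96 (ENSMUSG00000065586.1, chr6:30169446-30169551) and Mir182 (ENSMUSG00000076361.1, chr6:30165918-30165992) overlap no other annotated gene. Mir183 and Mir96 are 116 bases apart, and Mir182 follows after another 3453 bases. In the GENCODE M21 transcripts, no stretch of 18 bases of these 8 mature sequences occurred in any gene other than the microRNA itself, except for Gm13648 over Mir429 and Gm29008 over Mir141; the rest of the genome was not searched.

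**Figure D1:**
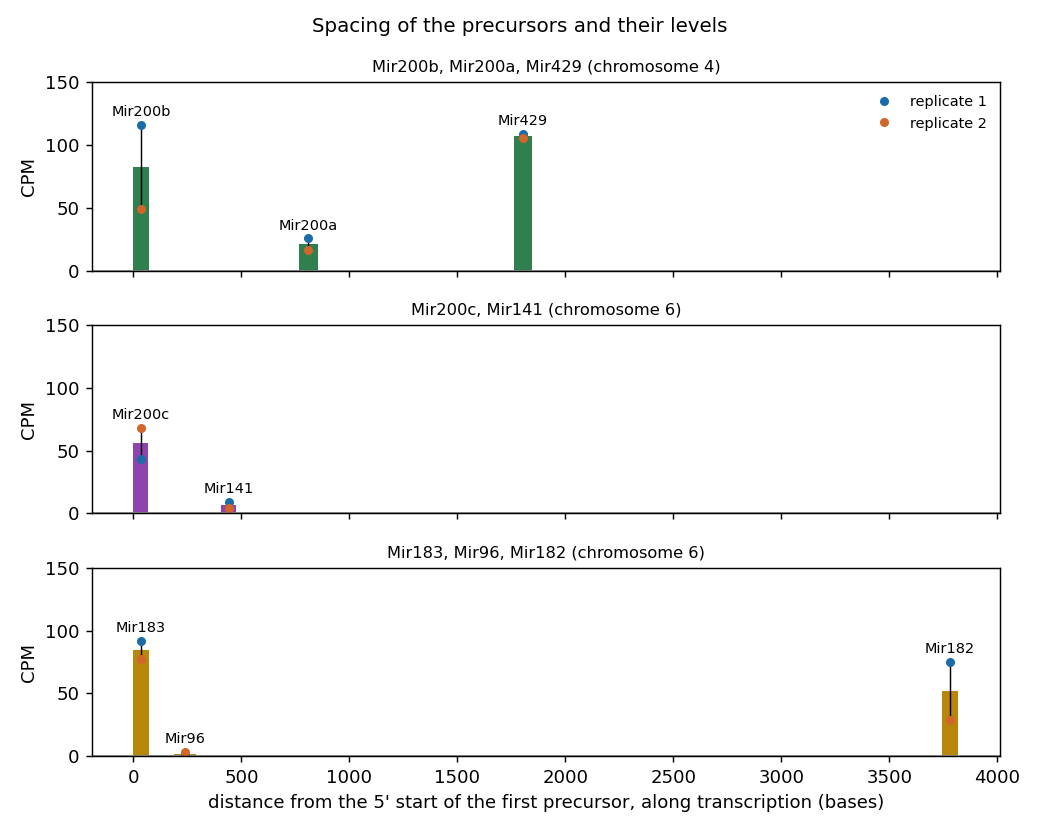
Spacing and level of the precursors at the 3 loci; the horizontal axis is the distance in bases from the 5′ start of the first precursor along transcription, bars are the mean level in CPM at the true position and width of each precursor, and points are the 2 libraries (blue replicate 1, orange replicate 2). Mir96 is nearly invisible at 1.99 CPM beside Mir183 at 84.9 CPM, 116 bases away, and Mir429, the last gene of its locus, has both points at the top of its bar.

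At the chromosome 4 locus, Mir429 was the steadiest gene. It had 537 reads in replicate 1 and 468 in replicate 2, that is 108.9 CPM (exact Poisson 95% interval 99.9 to 118.6) and 105.4 CPM (96.0 to 115.4), with a mean of 107.2 ± 2.52 CPM. Mir200b, which has the same seed, had 571 and 220 reads, or 115.8 CPM (106.5 to 125.7) and 49.5 CPM (43.2 to 56.5), with a mean of 82.7 ± 46.9 CPM. The libraries thus agree on Mir429 within counting error and not on Mir200b, which was the highest of the 8 genes in replicate 1 and the fourth in replicate 2. Mir200a, the AACACUG member of the locus, was lower than both in each library, with 127 and 73 reads, or 25.8 CPM (21.5 to 30.7) and 16.4 CPM (12.9 to 20.7). Intervals on reads cover counting error only, here and below, and leave out spread between samples. They take each read as a separate count, and molecular identifiers were not used to count molecules.

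At the Mir200c locus the AAUACUG member was again the higher one. Mir200c had 214 reads in replicate 1 and 304 in replicate 2, or 43.4 CPM (37.8 to 49.6) and 68.4 CPM (61.0 to 76.6), with a mean of 55.9 ± 17.7 CPM. Mir141 had 47 and 20 reads, or 9.53 CPM (7.01 to 12.7) and 4.50 CPM (2.75 to 6.95), with a mean of 7.02 ± 3.56 CPM. Mir200c was the high gene in both libraries, but the library with more Mir200c had less Mir141.

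In the miR-183 cluster, Mir183 and Mir182 carried nearly all reads. Mir183 had 454 and 345 reads, or 92.1 CPM (83.8 to 101.0) and 77.7 CPM (69.7 to 86.3), with a mean of 84.9 ± 10.2 CPM. Mir182 had 369 and 128 reads, or 74.9 CPM (67.4 to 82.9) and 28.8 CPM (24.0 to 34.3), with a mean of 51.8 ± 32.6 CPM. Mir96, between them on the chromosome, had 3 reads in replicate 1 and 15 in replicate 2, or 0.609 CPM (0.126 to 1.78) and 3.38 CPM (1.89 to 5.57). It is the only one of the 8 genes that missed the minimum of 10 reads in each library that defines a detected gene here, which 417 of the 2202 genes passed.

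**Figure D2:**
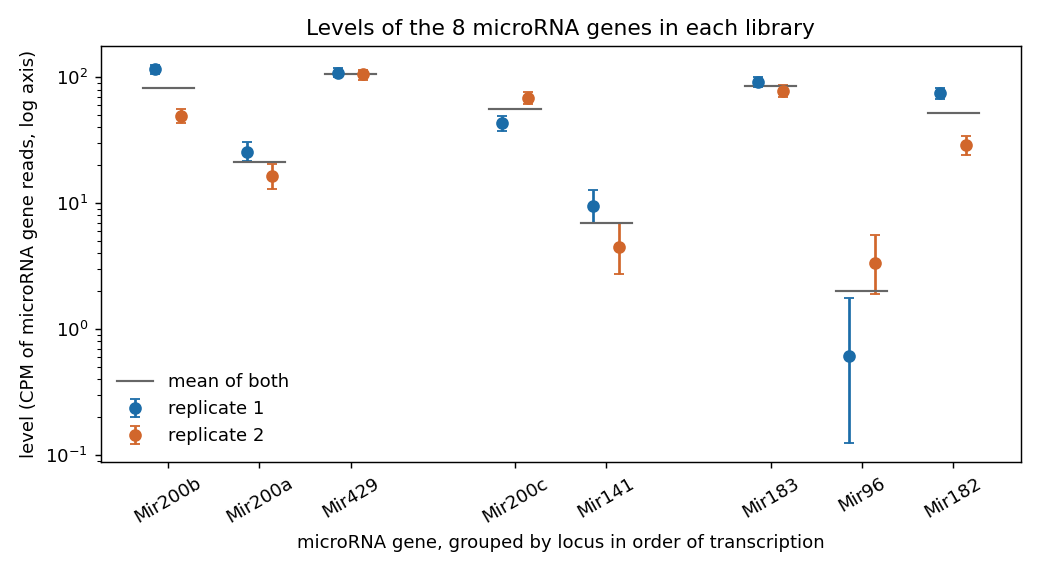
Level of each of the 8 genes in CPM on a log axis, grouped by locus in the order of transcription; points are single libraries (blue replicate 1, orange replicate 2) with exact Poisson 95% intervals, and grey lines are the means of both. Mir429 and Mir183 have the closest pairs of points, Mir200b and Mir182 lie well apart with replicate 1 on top, and Mir200c and Mir96 have replicate 2 on top.

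Ordered by mean level the genes ran Mir429, Mir183, Mir200b, Mir200c, Mir182, Mir200a, Mir141 and Mir96. Each read of this assay stands for a short RNA as a whole, so levels were not divided by length; divided by the length of the precursor, from 69 bases in Mir200c to 106 in Mir96, the order was the same. Mir429 lay above Mir183 in both libraries without overlap of ranges, by 16.8 CPM in replicate 1 and by 27.7 CPM in replicate 2. Mir200b lay above Mir429 in replicate 1, at 115.8 against 108.9 CPM, and below it in replicate 2. In replicate 1 the counting interval of Mir429 overlapped those of Mir183 and Mir200b. The next 3 steps of the order did not hold: the ranges of Mir183 and Mir200b, of Mir200b and Mir200c, and of Mir200c and Mir182 overlapped, and each of these pairs changed places between the libraries. Below them Mir182 lay over Mir200a, Mir200a over Mir141 and Mir141 over Mir96 in both libraries with no overlap of ranges. For Mir141 and Mir96 in replicate 2, at 20 and 15 reads, the counting intervals overlapped. Among the 417 detected genes of the series, whose median level was 94.7 CPM, Mir429 ranked 202, Mir183 ranked 214, Mir200b ranked 217, Mir200c ranked 233, Mir182 ranked 241, Mir200a ranked 281 and Mir141 ranked 342. Mir429 was therefore the only one of the 8 above the median.

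The loci kept their order by total reads in each library, with unequal gaps. The chromosome 4 locus had 1235 reads in replicate 1 and 761 in replicate 2, or 250.5 and 171.3 CPM. The miR-183 cluster had 826 and 488 reads, or 167.6 and 109.9 CPM, and the Mir200c locus had 261 and 324 reads, or 52.9 and 73.0 CPM. The ratio of the chromosome 4 locus to the miR-183 cluster was nearly the same in the libraries, 1.495 (exact 95% interval 1.37 to 1.63) and 1.56 (1.39 to 1.75). Against the Mir200c locus the ratio was 4.73 (4.14 to 5.43) in replicate 1 and 2.35 (2.06 to 2.68) in replicate 2, so that the intervals of this ratio did not overlap between the libraries, while those of the former did. The ratio of the miR-183 cluster to the Mir200c locus likewise was 3.16 (2.75 to 3.65) and 1.51 (1.31 to 1.74). These ratios are formed within a library and need no scaling between libraries. They are ratios of reads. How evenly the assay captured different sequences was not measured, here or for the genes and seeds.

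The make-up of each locus also differed between the libraries. Mir200b supplied 46.2% of the reads of its locus in replicate 1 (Clopper-Pearson 95% interval 43.4 to 49.1%) and 28.9% in replicate 2 (25.7 to 32.3%), and Mir429 supplied 43.5% (40.7 to 46.3%) and 61.5% (57.9 to 65.0%). Mir200a held a like share in both, 10.3% (8.65 to 12.1%) and 9.59% (7.59 to 11.9%). At the Mir200c locus, Mir200c supplied 82.0% (76.8 to 86.5%) and 93.8% (90.6 to 96.2%), which is a ratio of Mir200c to Mir141 of 4.55 (3.31 to 6.38) and 15.2 (9.67 to 25.2). In the miR-183 cluster, Mir183 supplied 55.0% (51.5 to 58.4%) and 70.7% (66.4 to 74.7%), Mir182 supplied 44.7% (41.2 to 48.1%) and 26.2% (22.4 to 30.4%), and Mir96 supplied 0.363% (0.0750 to 1.06%) and 3.07% (1.73 to 5.02%). Apart from Mir200a, no gene had overlapping intervals for its share in the 2 libraries. The counts are per precursor, so the reads of the 2 arms cannot be told apart in these shares.

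**Figure D3:**
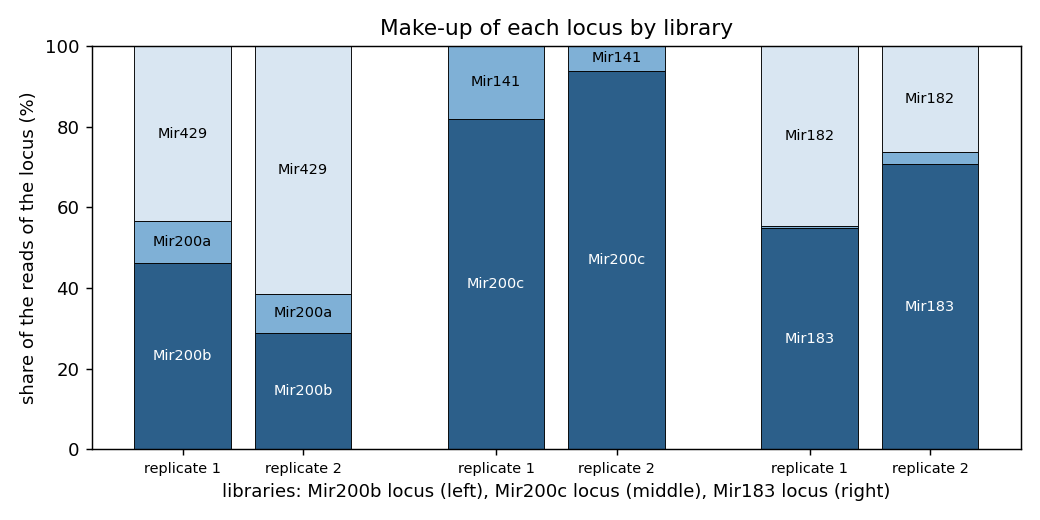
Share of the reads of each locus, in percent, that came from each of its genes, with a bar for each library (replicate 1 left, replicate 2 right in each pair). The first gene of the chromosome 4 locus shrinks from 46.2% to 28.9% between the bars while the first genes of the other loci grow, and the unlabelled thin band between Mir183 and Mir182 is Mir96.

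Summed by seed, the reads of the miR-200 family were mostly of the AAUACUG kind. Its 3 genes came to 268 CPM in replicate 1 and to 223 in replicate 2, a mean of 246 ± 31.7 CPM, and the AACACUG pair came to 35.3 and 20.9 CPM, a mean of 28.1 ± 10.2 CPM. The AAUACUG sum exceeded the AACACUG sum in both libraries with no overlap. The AAUACUG genes moved apart between the libraries, with Mir200b lower, Mir200c higher and Mir429 level in replicate 2. Relative to its mean, their sum had a smaller spread than Mir200b or Mir200c alone, and a larger spread than Mir429 alone. In the miR-183 cluster the AUGGCAC seed of miR-183 stood at 84.9 ± 10.2 CPM, the UUGGCAA seed of miR-182 at 51.8 ± 32.6 CPM and the UUGGCAC seed of miR-96, with Gm24195 included, at 1.99 ± 1.96 CPM. A gene count holds both arms, so these sums can include reads of the arm without the seed. They leave out reads that match several places.

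For every detected gene, the reads of replicate 2 were set against those of replicate 1 by a two-sided exact binomial test, and p-values were adjusted over all 417 genes by the Benjamini-Hochberg method. The test is about these libraries rather than about conditions, and counting error is all it allows for. It called 59.2% of all detected genes at an adjusted p under 0.05, 34.5% as lower and 24.7% as higher in replicate 2, and 6 of the 7 tested genes of the 3 loci. Of these, 5 were lower and 1 was higher in replicate 2, at a median log2 ratio of replicate 2 to replicate 1 of -0.65 over the 7, beside -0.05 over all detected genes. Mir200b was lower in replicate 2, at a log2 ratio of -1.23 (exact 95% interval -1.46 to -0.999, adjusted p = 1.36e-28, binomial test), and 7.91% of detected genes had a ratio at least as wide in either direction. Mir182 was lower at -1.38 (-1.68 to -1.08, adjusted p = 2.39e-22), with 6.24% of genes at least as wide. Mir141 was lower at -1.08 (-1.92 to -0.30, adjusted p = 0.00844). A gap of at least 2-fold was called in 11.3% of all detected genes (4.8% lower and 6.47% higher in replicate 2), and in these 3 members, which were lower.

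The other members differed less. Mir200a was lower in replicate 2, at a log2 ratio of -0.65 (-1.08 to -0.22, adjusted p = 0.00429, exact binomial test), and Mir200c was higher at 0.66 (0.40 to 0.92, adjusted p = 7.26e-07). Mir183 was lower at -0.25 (-0.45 to -0.04, adjusted p = 0.0301), a call that was lost when the libraries were scaled by TMM factors (adjusted p = 0.0891) or by DESeq2 size factors (adjusted p = 0.0516). Mir429 did not pass at -0.05 (-0.23 to 0.13, adjusted p = 0.708). Mir96 was not tested because of its 3 reads in replicate 1. Its log2 ratio was 2.47 with a counting interval of 0.65 to 4.90, and in a fit without a filter on low counts it was called higher in replicate 2 (adjusted p = 0.0105). No direction of a tested member changed under any of the scalings.

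**Figure D4:**
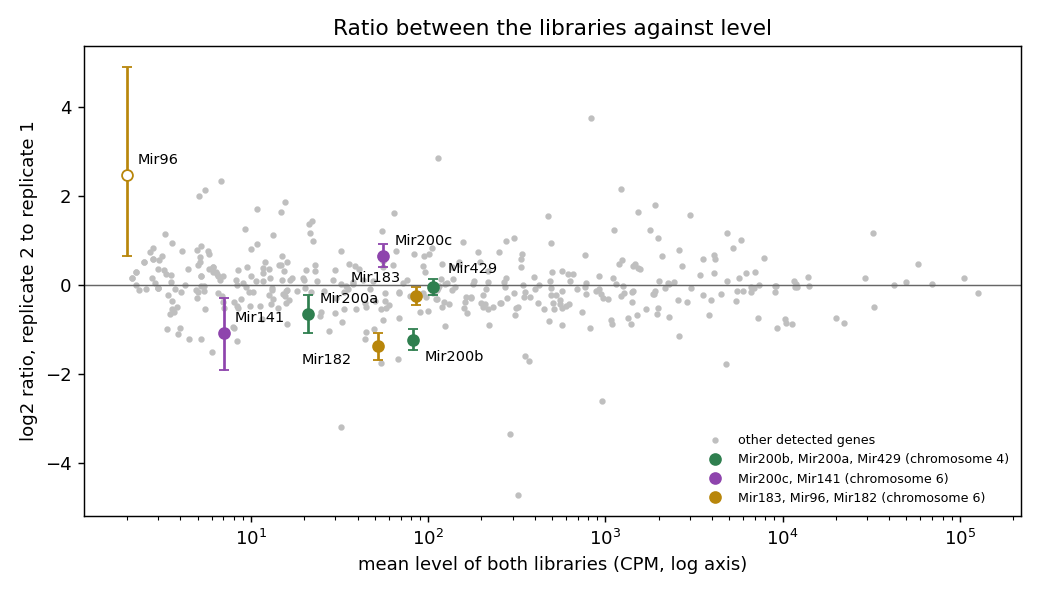
Log2 ratio of replicate 2 to replicate 1 against the mean level of both libraries in CPM (log axis); grey points are the other detected genes, coloured points are the 8 genes by locus with exact 95% intervals, and the open point is Mir96, which was not tested. Mir200b and Mir182 lie below most grey points at -1.23 and -1.38, Mir200c lies above 0 at 0.66, and Mir141 from the same locus lies below at -1.08.

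Detected genes of a locus differed in how far they moved between the libraries, and at the Mir200c locus also in direction. There the log2 ratios of the pair were 1.74 apart, with a call in each direction. On chromosome 4 they spanned 1.18, with both called genes, Mir200b and Mir200a, lower in replicate 2. Mir183 and Mir182 were 1.13 apart, both called lower. In the series as a whole, 44 groups of 2 or more detected microRNA genes lie on the same strand with gaps of at most 10000 bases, and 15 of them held a called gene in each direction; among the 28 groups of 2 genes the median distance was 0.48 and 9 had calls in both directions, and among the 10 groups of 3 it was 1.00. The groups of the whole series include multi-copy microRNAs, whose counts miss reads that match several places. In mean level the highest and lowest genes were 7.97-fold apart at the Mir200c locus, beside a median of 12.1-fold over groups of 2. On chromosome 4 they were 5.08-fold apart, beside a median of 19.8-fold over groups of 3, and Mir183 and Mir182 were 1.64-fold apart. These measures leave out Mir96, which was under the count minimum and was higher in replicate 2, opposite to Mir183 and Mir182. With it the miR-183 cluster spanned 3.85 in log2 ratio, beside at most 3.07 in any group of detected genes, and 42.6-fold in level, values that rest on the 3 and 15 reads of Mir96.

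MicroRNAs of other cells that a cortex sample can hold are given beside these results. The counts of genes called in each list stand against the 59.2% called over all detected genes, 34.5% lower and 24.7% higher in replicate 2. The list for choroid plexus and ependyma, the lining of the ventricles, had 8 of 11 annotated members detected and summed to 2132 CPM in replicate 1 and to 1628 in replicate 2. Of its 8 detected members 5 were called lower and 2 higher in replicate 2: Mir204, abundant in choroid plexus, stood at 1084 and 553 CPM and Mir1298 at 566 and 173 CPM, whereas Mir34c, known from multiciliated cells, stood at 242 and 711 CPM. Mir449b of this list had no read. The list for other epithelia, with 5 of 7 detected, summed to 634 and 527 CPM, and it was led by Mir375, known from endocrine cells, at 478 and 361 CPM, by Mir203, the microRNA of stratified skin, at 126 and 130 CPM, and by Mir194-2 at 11.6 and 18.2 CPM. Of its 5 detected genes 1 was called lower and 1 higher in replicate 2, Mir205 of stratified epithelia stood at 5.27 and 4.73 CPM, and Mir194-1 had no read.

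The genes listed for neuroendocrine cells, Mir7b, Mir375, Mir7-2 and Mir7-1, summed to 2907 and 2623 CPM with 4 of 4 detected and 4 called lower in replicate 2. Mir7b alone held 2221 and 2108 CPM of these sums, and Mir375 is also on the list for other epithelia. Which cells of the cortex held these reads was not tested. The list for red blood cells, Mir451a, Mir144 and Mir486, summed to 602 and 88.5 CPM with 3 of 3 detected. Mir451a and Mir144 were called lower in replicate 2, and Mir486 was called higher, at 15.0 and 29.9 CPM. The neuronal list, led by Mir132, Mir128-1 and Mir137, had 11 of 16 detected genes called lower and 3 higher. The 8 genes of the miR-200 and miR-183 loci together came to 471 CPM in replicate 1 and to 354 in replicate 2. In both libraries this was below the lists for choroid plexus and ependyma, neuroendocrine cells, neurons and other epithelia, the last at 634 and 527 CPM. The 8 genes were below the red blood cell list in replicate 1 and above it in replicate 2. Counts in these lists moved beside those of Mir200b and Mir182, and their part in the difference was not tested. Their part in the opposite move of Mir200c and Mir141 was not tested either.

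**Figure D5:**
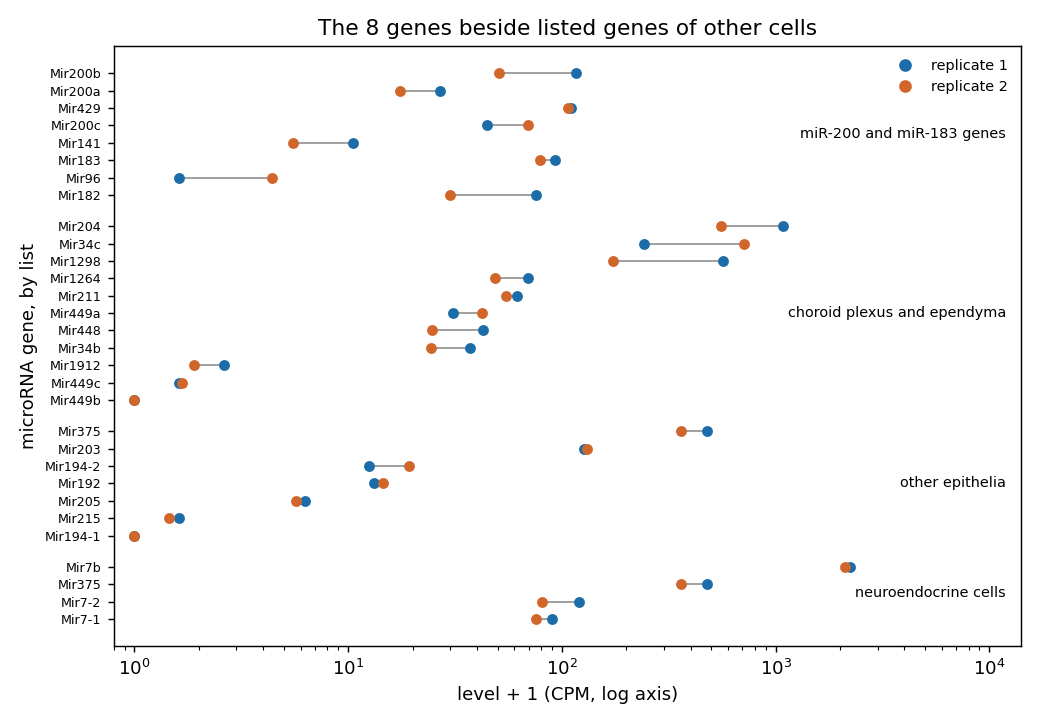
Level in CPM plus 1 (log axis) of the 8 genes and of the listed genes for choroid plexus and ependyma, other epithelia and neuroendocrine cells, with a line joining replicate 1 (blue) and replicate 2 (orange) of each gene. The 8 genes lie below Mir204 and Mir375, and each group but the neuroendocrine one holds lines in both directions.

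The genes nearest in level over the 2 libraries, by Euclidean distance in log2(CPM + 1), were named for the most abundant member of each locus. They were Mir130b (distance 0.09, with 557 and 443 reads) and Mir505 (0.10) for Mir429, Gm49347 (0.08, with 222 and 292 reads) and mmu-mir-3535 (0.10) for Mir200c, and Mir3072 (0.05, with 448 and 333 reads) and Mir7-1 (0.08) for Mir183. Likeness over 2 libraries is a description of level alone. With a pseudocount of 10 CPM the same genes were nearest.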

How the data were processed

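MicroRNA-seq of 2 libraries of 1 group was used. The deposited tables hold raw read counts per precursor gene, made against mm10 and GENCODE M21 per the file headers and notes; which aligner and counter made them is not given in the sources used here, and the strain's differences from the reference were not measured. The sense counts were used. Reads matching several places (38.5% and 33.0% of all reads), unmapped reads (25.6% and 34.3%) and reads outside genes (5.82% and 6.54%) stayed out of library sizes. CPM is the count scaled to 1000000 reads on microRNA genes. A gene is detected from 10 reads upward in both libraries. The tables hold a single group, so no edgeR quasi-likelihood contrast exists; the libraries were compared by exact binomial tests (scipy 1.17.1) with Benjamini-Hochberg adjustment and a threshold of 0.05. Counts of all 2202 genes were simulated with counting error only, and 426 genes passed the minimum of 10 reads in both libraries. Changes were put only on genes from a middle range of levels. Among the 426 genes this comparison called 77.6% of genes changed 1.5-fold, 92.3% changed 2-fold, and 0.855% of unchanged genes. Spread between libraries beyond counting was not simulated, so these shares are not error rates of the calls made here. Alternatives were counts without strand, TMM (edgeR 4.0.16), DESeq2 1.42.0 size factors, all mapped reads, count minimums, precursor length and single libraries. Sequences come from RefSeq, and 8 of 8 hairpins matched GENCODE coordinates. The members and lists were chosen with earlier results of these data known. Named genes are the members, the leading 3 of each list, genes sharing a seed and the nearest in level; Mir205 and the genes without reads or under the minimum were added.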

Additional observations from a re-analysis of the deposited data

Results flagged for a closer look

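Mir200a had 9 reads in replicate 1 and 4 in replicate 2 on the strand opposite to the gene, in a column of the tables that no comparison here uses, and both counts are above the 3 reads that a count of 0 allows. They were 6.62% of the reads of both strands at the gene in replicate 1 (Clopper-Pearson 95% interval 3.07 to 12.2%) and 5.19% in replicate 2 (1.43 to 12.8%). The other 7 genes had none. Of 390 detected genes that overlap no microRNA gene on the other strand, 23 had any such read and 6 had more than 3 in each library, and Mir200a ranked 4 by share. The longest stretch of the Mir200a hairpin whose reverse complement also lies in the hairpin was 7 bases, beside 10 in Mir429, which had no such read. This length covers exact, unbroken matches only. Where the reads on the opposite strand came from was not tested.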

How the results depend on the processing

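Levels, locus sums and seed sums moved by less than the SD of the libraries under TMM factors, DESeq2 size factors and counts without regard to strand. The exception was Mir429, with its SD of 2.52 CPM, which stood at 115 CPM in the counts without strand. Its reads were the same 537 and 468 there, so only the library totals differed. Mir183 moved the same way, from 84.9 to 91.4 CPM, within its SD of 10.2 CPM. Scaled to all mapped reads, the chromosome 4 locus stood at 84.7, the Mir200c locus at 25.2 and the miR-183 cluster at 55.7 reads per 1000000, and the seeds AAUACUG and AACACUG at 98.6 and 11.3, and the order of the loci held. Per base of precursor the ratio of the chromosome 4 locus to the miR-183 cluster was 1.58, beside 1.53. That of the chromosome 4 locus to the Mir200c locus was 2.05, beside 3.54. The ratio of the miR-183 cluster to the Mir200c locus was 1.31 ± 0.66 (SD, n = 2), beside 2.34. In replicate 2 the cluster had 488 reads on 251 precursor bases, and the Mir200c locus had 324 on 141. Per base the cluster therefore lay below the Mir200c locus in that library. In single libraries the 3 locus sums ranged from 171.3 to 250.5, from 52.9 to 73.0 and from 109.9 to 167.6 CPM. The calls among the tested members were 5 of 7 under TMM or DESeq2 factors, where Mir183 was lost, 7 of 8 without a filter on low counts and 4 of 5 with at least 100 reads in each library. Over all genes 247 of 417 were called, 275 of 766 (35.9%) without the filter and 218 of 270 (80.7%) with at least 100 reads, and 226 to 251 under the other alternatives. Chosen after seeing the data, leaving Mir132 out of the neuronal list turned the log2 ratio of its sum from 0.20 to -0.75, and including Mir96 widened the span of log2 ratios in the miR-183 cluster from 1.13 to 3.85. TMM factors moved the median log2 ratio of all genes by 0.05. Depth limits Mir96 and Mir141, and 2 libraries limit every SD. No paired analysis was possible because there is a single group.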

Other observations

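Neighbouring microRNA genes in other clusters also went apart between the libraries, named here after their values were seen. In the ciliated-cell pair Mir34c and Mir34b, Mir34c was called higher and Mir34b lower in replicate 2, with log2 ratios 2.18 apart. Mir296 and Mir298 were the farthest apart of the 28 groups of 2 detected genes, at 3.07, and the pair Mir200c and Mir141, at 1.74, came after these.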
